A study of Mus musculus with 2 samples.

Results

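Cell division in tumour-infiltrating immune cells, and in the Ptprc-low cells captured with them, was read from 38 cell cycle genes in 2 single-cell RNA libraries. The genes were the listed symbols found in both deposited matrices, all 38 of them among 31253 genes, and they made up 0.320% of the unique molecular identifiers (UMIs, 1 per captured transcript) of kept cells in the wt library and 0.299% in the library labelled Lcn2-ko. Both libraries came from tumours of MB49, an established mouse bladder cancer line, grown in chimeric mice: female hosts, lethally irradiated, that had received marrow from male WT or Lcn2-KO donors. Lcn2 encodes lipocalin 2, an iron-siderophore binding protein made in large amounts by neutrophils, and the study asked how it bears on neutrophils. Tumours were digested with enzymes for 45 min at 37 °C, and live CD45+ cells were sorted and captured on the BD Rhapsody system. Irradiation and marrow transfer were shared by both groups. Host cells that survive irradiation keep the host genotype, and the labels do not give how many animals were pooled, so each label rests on 1 library and no difference between labels has a replicate check.

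A dividing cell first licenses its replication origins, when MCM helicases are loaded by Cdc6, and cyclin E then helps to start DNA synthesis. The copying machinery needs deoxynucleotides, a sliding clamp and factors that rebuild chromatin behind the fork. In G2 and mitosis, cyclin A and B with Cdk1, the Aurora and Polo kinases and the spindle proteins come up together, and the anaphase-promoting complex (APC/C) ends mitosis by marking cyclin B for destruction. Resting cells keep most of these genes low through the pocket proteins and the DREAM complex, which reach promoters through E2F sites and through CHR elements with the letters TTTGAA, and NF-Y binds CCAAT boxes close by. The 38 genes were read by role: 10 act in G1/S control and origin licensing, 6 in DNA synthesis and chromatin copying, 11 are mitotic kinases, cyclins and their APC/C partners, 9 belong to spindle, kinetochore and cytokinesis, and 2 to chromosome structure. The first 16 are called replication genes and the other 22 mitosis genes here.

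Promoters of the replication and mitosis genes were searched for motifs, and some are printed as examples. The 250 bases before the RefSeq gene start are printed 5′ to 3′ on the gene's strand, from the GRCm38.p6 RefSeq promoter table, for the replication genes Pcna and Rrm2 and the mitosis genes Top2a and Birc5, which had the highest UMI totals of their groups among genes in that table. Mcm6, the most abundant replication gene there with an E2F match, was added after the matches were seen. Capitals mark matches, on either strand, to the box CCAAT, to the CHR element TTTGAA, or to 3 E2F motifs, which were TTTCCCGC and its variants TTTGGCGC and also TTTCGCGC. Pcna, the sliding clamp of DNA polymerase, lies at chr2:132253181-132253430 on the minus strand. Rrm2, the small subunit of ribonucleotide reductase, lies at chr12:24708004-24708253 on the plus strand, and Mcm6, a subunit of the replicative helicase, at chr1:128359706-128359955 on the minus strand. Top2a, the topoisomerase that untangles sister chromatids, lies at chr11:99024190-99024439 on the minus strand, and Birc5 (survivin), a subunit of the chromosomal passenger complex, at chr11:117848987-117849236 on the plus strand.
Pcna: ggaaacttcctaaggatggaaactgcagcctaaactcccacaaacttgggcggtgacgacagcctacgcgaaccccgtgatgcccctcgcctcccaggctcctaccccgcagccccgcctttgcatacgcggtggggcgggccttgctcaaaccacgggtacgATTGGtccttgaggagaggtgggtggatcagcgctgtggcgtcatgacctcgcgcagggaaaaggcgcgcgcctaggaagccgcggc
Rrm2: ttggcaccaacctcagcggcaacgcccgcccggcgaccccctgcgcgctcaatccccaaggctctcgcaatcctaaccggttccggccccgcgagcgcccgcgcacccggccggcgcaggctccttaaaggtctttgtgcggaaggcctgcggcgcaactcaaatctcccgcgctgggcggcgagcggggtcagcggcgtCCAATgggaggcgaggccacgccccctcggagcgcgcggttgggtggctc
Mcm6: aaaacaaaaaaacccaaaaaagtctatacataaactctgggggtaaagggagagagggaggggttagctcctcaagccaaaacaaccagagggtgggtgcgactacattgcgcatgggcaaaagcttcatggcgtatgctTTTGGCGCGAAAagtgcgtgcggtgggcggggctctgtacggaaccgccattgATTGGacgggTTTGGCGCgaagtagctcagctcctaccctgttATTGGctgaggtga
Top2a: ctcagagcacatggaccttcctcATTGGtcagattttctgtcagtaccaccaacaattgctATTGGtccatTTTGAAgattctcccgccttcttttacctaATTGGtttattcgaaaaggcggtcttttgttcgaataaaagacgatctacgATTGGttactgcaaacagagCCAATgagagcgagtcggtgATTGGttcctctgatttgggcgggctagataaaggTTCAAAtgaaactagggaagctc
Birc5: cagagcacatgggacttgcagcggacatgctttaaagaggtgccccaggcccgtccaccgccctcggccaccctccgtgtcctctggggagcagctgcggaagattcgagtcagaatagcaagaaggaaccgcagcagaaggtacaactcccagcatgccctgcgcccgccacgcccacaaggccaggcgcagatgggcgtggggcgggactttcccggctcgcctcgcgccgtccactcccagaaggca
Top2a held 8 matches, 2 to TTTGAA and 6 to CCAAT, and Birc5 held 0. Mcm6 held 5 matches, of which 3 were to E2F letters, while Pcna and Rrm2 each held 1 CCAAT match. Of the 38 genes, 32 matched the table, and Ccna2, Gins2, Ccne2, Aurkb, Tpx2 and Mcm4 did not. TTTGAA was found before 8 of 19 mitosis genes (Ccnb2, Cdc20, Cdk1, Kif11, Mki67, Prc1, Top2a and Ube2c) and 1 of 13 replication genes (Mcm2), against 16% of 32841 promoters of the same length, and all 9 also held CCAAT, a pair present in 5.55% of promoters. CCAAT alone was found before 16 of 19 mitosis genes and 9 of 13 replication genes, against 33.9% of promoters. At least 1 of the 3 E2F motifs was found before 6 of 13 replication genes (Cdc6, Hells, Mcm5, Mcm6, Mcm7 and Uhrf1) and 1 of 19 mitosis genes (Cdk1), against 1.53% of promoters. TTTCCCGC stood in 0.895% of all promoters, TTTGGCGC in 0.417% and TTTCGCGC in 0.256%. The last letters of one motif can overlap those of another. Genes with more than 1 listed start, 3 of the 32, counted as holding a motif when any window did. A match is a description of letters, not a bound site.

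In each library the same kinds of cell were captured, and values below are given for the wt library first and the library labelled Lcn2-ko second. The libraries held 7974 and 7788 barcodes with 42069099 and 40959725 UMIs, of which 7398 and 7240 cells were kept, with a median of 3663.5 and 3641 UMIs, and 4 barcodes occurred in both. Clusters were built without the cell cycle genes and named from marker genes, so that each name stands for resemblance only. Clusters low in Ptprc, which encodes CD45, held 13.4 to 20.3 CPM of Ptprc (UMIs in 1000000 of the cell set), against 1031 in regulatory T-like cells, each over both libraries. They also carried 221 to 515 CPM of Krt8, 469 to 786 of Krt18 and 2495 to 6542 of Col1a1, with at most 1.2 CPM of Epcam and 4.3 of Pecam1, although the gate was CD45+. Whether they are MB49 cells was not tested. Lcn2 itself does not check the labels, because UMIs mark transcript ends and the deleted exons are not given: it stood at 216 and 163 CPM in neutrophil-like cells and at 16.7 and 15.6 over all kept cells.

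Summed over the 38 genes, levels ran from 4454 and 4050 CPM in Ptprc-low clusters to 434 and 447 CPM in monocyte-like cells, with T-like cells at 2911 and 2818, dendritic-like cells at 2210 and 2175 and macrophage-like cells at 1649 and 1489. A cell was called cycling when the genes held at least 0.2% of its UMIs and at least 2 different ones were seen, which is a range of a score and not a cell type. By this rule 1912 of 7398 cells (25.8%; exact 95% binomial interval 24.9 to 26.9) and 1802 of 7240 cells (24.9%; 23.9 to 25.9) were cycling. These and all later intervals cover counting error only. Near the limit, at scores from 0.15% to 0.25%, lay 8.88% and 9.42% of cells, 228 and 230 just above the limit and 429 and 452 just below it. A cycling cell held a median of 17 and 16 different members and 40 and 39 UMIs of them, so UMIs of these genes come in bundles, and intervals computed from UMIs are too narrow for cells. In the 6 classes compared below, cycling cells were also deeper than the others, with medians of 3722.5 against 2397 UMIs in T-like cells and 12960 against 7266 in Ptprc-low clusters of the wt library, but not in every other group: in a Ptprc-low cluster of few UMIs they were shallower.

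**Figure D1:**
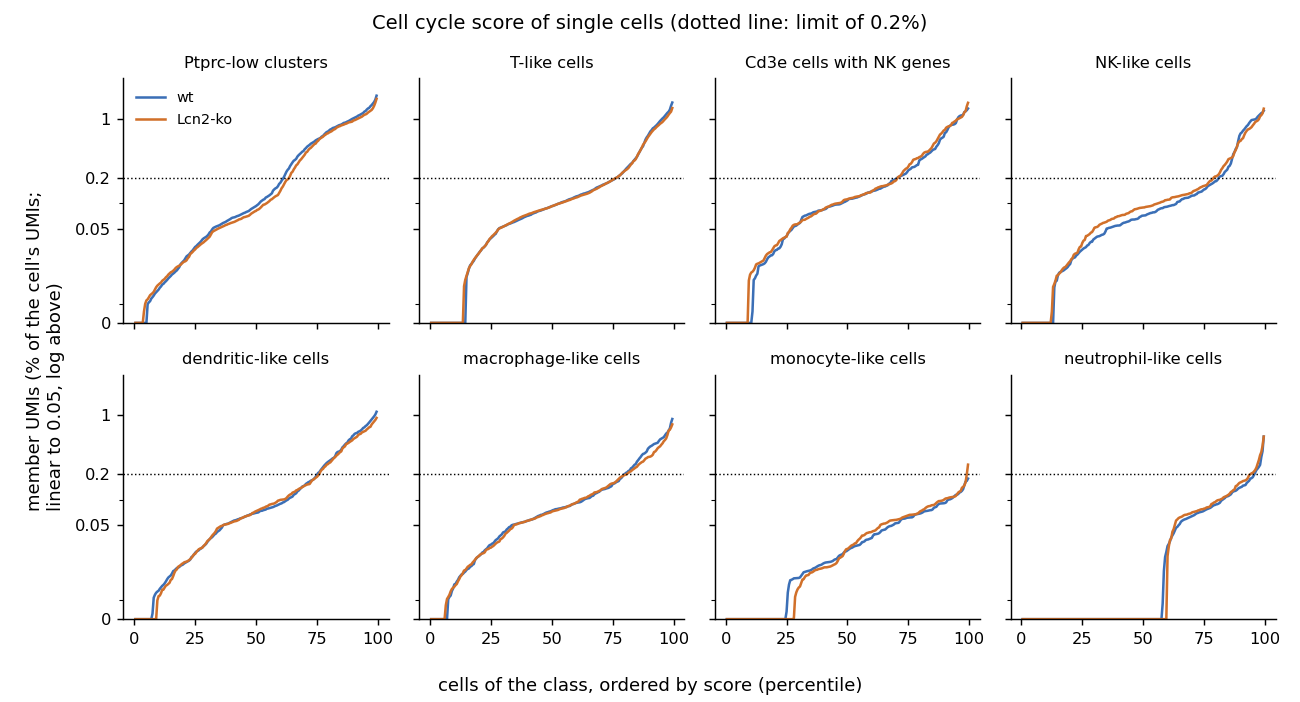
Summed UMIs of the 38 genes as a percent of each cell's UMIs (vertical axis) against the percentile of cells (horizontal axis), in each class and library, with the 0.2% limit dotted. Curves stay low over most cells and turn up at the right, earliest in Ptprc-low clusters, where 38.9% and 36.4% of cells were called cycling.

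Cells in the Ptprc-low clusters cycled most often. In the 4 Ptprc-low clusters compared as a class, 38.9% of 1627 cells (36.5 to 41.3) and 36.4% of 1524 cells (34.0 to 38.9) were cycling. They held 56.9% and 53.8% of all UMIs of the 38 genes, but 33.1% and 30.8% of the cycling cells, and their cells were deeper than those of most classes (median 8976 and 9092 UMIs). T-like cells, at 23.6% of 2591 cells (22 to 25.3) and 23.6% of 2923 cells (22 to 25.2), gave 32.0% and 38.2% of the cycling cells. Next to them stood a cluster with Cd3e and NK cell genes (Cd3e cells with NK genes), of which 29.9% (25.2 to 34.9) and 29.4% (24.4 to 34.9) were cycling. Dendritic-like cells followed at 24.8% (21.8 to 28) and 23.7% (20.3 to 27.4), NK-like cells at 19.3% (14.7 to 24.5) and 21.1% (17.2 to 25.5), and macrophage-like cells at 20.4% (17.2 to 24.0) and 19.2% (16.1 to 22.5). Among the immune classes the intervals of neighbours in this order overlap.

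Few neutrophil-like cells, and few monocyte-like cells in the clustering used, were called cycling. In neutrophil-like cells 19 of 616 (3.08%; 1.87 to 4.77) and 14 of 385 (3.64%; 2.0 to 6.03) passed the limit. In monocyte-like cells it was 0 of 126, which allows a share of up to 2.38% by the 3 counts a 0 allows (exact upper bound 2.89%), and 2 of 169 (1.18%). The monocyte-like class depends on the clustering: with no cell left out as a doublet it held 427 and 535 cells, 11.9% and 10.8% of them cycling, and the macrophage-like class 394 and 368 in place of 568 and 621. Under a mitochondrial limit of 10%, a resolution of 2, or with the cell cycle genes kept, 8.78% to 9.71% of monocyte-like cells were cycling. Counted as 1 class, an alternative added after seeing the data, monocyte-like and macrophage-like cells gave 16.7% and 15.3%, and 16.6% to 18.6% (wt) and 14.7% to 15.7% under the other clusterings. Mature dendritic-like cells, with 2 of 80 (2.50%) and 3 of 89 (3.37%), stood as low. RNA from other cells is present in these classes: Col1a1, at 5769 and 5608 CPM in Ptprc-low clusters, was counted at 130 and 147 CPM in neutrophil-like cells, or 2.25% and 2.62% of the Ptprc-low level, and at 48.7 and 73.2 CPM in monocyte-like cells. Its part in the few cycling neutrophil-like cells was not tested. Thinned to 800 UMIs a cell, neutrophil-like cells showed 4.39% and 4.76% and monocyte-like cells 4.76% and 3.55%, against 39.4% and 39.0% in Ptprc-low clusters and 27.3% and 28.1% in T-like cells. Another Ptprc-low cluster of few UMIs, with medians of 1200.5 and 1151.5, was set apart for its depth and had 61.5% and 64.0% cycling cells.

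Within classes, cycling cells were concentrated in some clusters. Among Ptprc-low clusters, the one led by Hhip had 55.5% and 55.0% cycling cells, with 6004 and 5624 CPM of the 38 genes. Those led by Hmga2 and Fgb were lower, at 41.2% and 43.2% and at 33.9% and 42.0%, so the Hhip cluster had the highest share of these 3 in both libraries. Among T-like cells, CD8 T-like cells led by Gzmf cycled at 30.5% (25.5 to 36.0) and 36.5% (32.5 to 40.7), those led by Ly6c2 at 29.9% (26.0 to 33.9) and 23.9% (20.5 to 27.4), and a cluster with Il17a at 26.7% and 26.3%. Regulatory T-like cells stood at 20.5% (18.3 to 22.8) and 19.4% (17.2 to 21.6), and CD4 helper-like cells at 14.3% and 14.4%. Xcr1 dendritic-like cells, which resemble the cross-presenting kind, cycled at 30.7% (26.5 to 35.2) and 38.3% (32.2 to 44.7), and Cd209a dendritic-like cells at 20.9% and 16.1%.

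**Figure D2:**
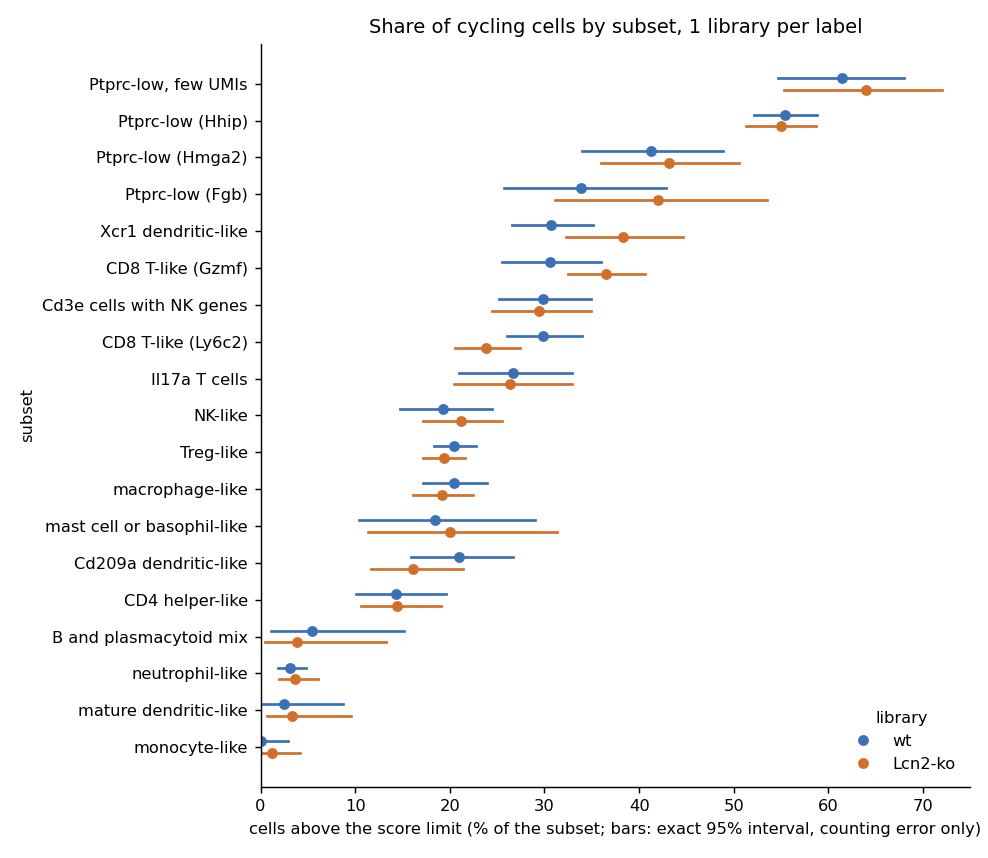
Percent of cells called cycling (horizontal axis) in the cluster groups shown, of both libraries, with exact 95% binomial bars that cover counting error only. Ptprc-low (Hhip) cells lie at 55.5% and 55.0%, while neutrophil-like, monocyte-like and mature dendritic-like cells lie under 4%.

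In the 6 classes compared, the share of cycling cells differed between the libraries by no more than counting error allows. Differences, as the library labelled Lcn2-ko minus wt with Newcombe 95% intervals, were -2.49 percentage points (-5.86 to 0.90) in Ptprc-low clusters, -0.05 (-2.30 to 2.19) in T-like cells and -0.44 (-7.33 to 6.53) in Cd3e cells with NK genes. They were 1.87 (-4.48 to 7.95) in NK-like cells, -1.07 (-5.64 to 3.59) in dendritic-like cells and -1.26 (-5.81 to 3.26) in macrophage-like cells. All 6 intervals hold 0. Among clusters of these classes, 2 had intervals without 0: CD8 T-like (Ly6c2) cells differed by -6.01 points (-11.1 to -0.890) and Xcr1 dendritic-like cells by 7.59 points (0.305 to 15). At 800 UMIs a cell these became -5.18 and 3.76 points, and both intervals held 0. The unnamed cluster, of 96 and 64 cells, differed by -13.5 points (-24.1 to -1.49), and by -9.85 at 800 UMIs, with an interval that held 0. Levels of the share also depend on the clustering. When the cell cycle genes took part in it, 23 of 231 (9.96%) and 42 of 339 (12.4%) NK-like cells were cycling. In Cd3e cells with NK genes it was then 134 of 396 (33.8%) and 132 of 366 (36.1%).

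Among genes of origin licensing, the helicase subunits were the most abundant. Mcm4 stood at 157 and 144 CPM in Ptprc-low clusters, 174 and 172 in T-like cells, 187 and 188 in dendritic-like cells and 121 and 126 in macrophage-like cells. Mcm6 stood at 171 and 159 CPM in Ptprc-low clusters and at 168 and 170 in T-like cells. Over kept cells, Mcm4 and Mcm6 had a UMI in 65.2% and 62.9% of cycling cells of the wt library, and in 21.5% and 18.6% of its other cells. Mcm2, Mcm3, Mcm5 and Mcm7, the other subunits of the ring, ranged from 56.6 to 91.2 CPM in Ptprc-low clusters and from 59.8 to 94.9 in T-like cells of the wt library. Cdc6, the loading factor, was far lower at 21.7 and 20.5 CPM in Ptprc-low clusters, as were Gins2, part of the active helicase, at 21.8 and 19.0, and the E cyclins Ccne1 at 12.7 and 11.4 and Ccne2 at 9.07 and 7.80. Ccne2 was the rarest member, with 577 UMIs over both libraries, and was seen in 9.78% and 8.93% of cycling cells.

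A DNA synthesis gene, Pcna, gave the highest level of any member in each immune class named here. It had 24703 UMIs over both libraries, more than any other member. It stood at 408 and 430 CPM in T-like cells, 411 and 515 in Cd3e cells with NK genes, 374 and 413 in NK-like cells and 297 and 276 in Ptprc-low clusters. In dendritic-like cells it was 244 and 285 CPM, in macrophage-like cells 273 and 266. Pcna was also the highest member in classes with few cycling cells, at 211 and 176 CPM in neutrophil-like and 138 and 161 CPM in monocyte-like cells, and a UMI of it was found in 42.4% and 46.7% of all cells not called cycling. Rrm2 showed another pattern, with 280 and 264 CPM in Ptprc-low clusters and 87.2 and 84.5 in T-like cells, while Rrm1, the large subunit of the same enzyme, was nearly level at 127 and 121 against 115 and 112. Tyms (thymidylate synthase) stood at 61.6 and 54.5 CPM in Ptprc-low clusters and 49.6 and 54.0 in T-like cells. For the chromatin factors, Uhrf1, which guides the copying of DNA methylation, had 109 and 93.5 CPM in Ptprc-low clusters, and Hells, a chromatin remodeller, had 31.5 and 28.2.

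**Figure D3:**
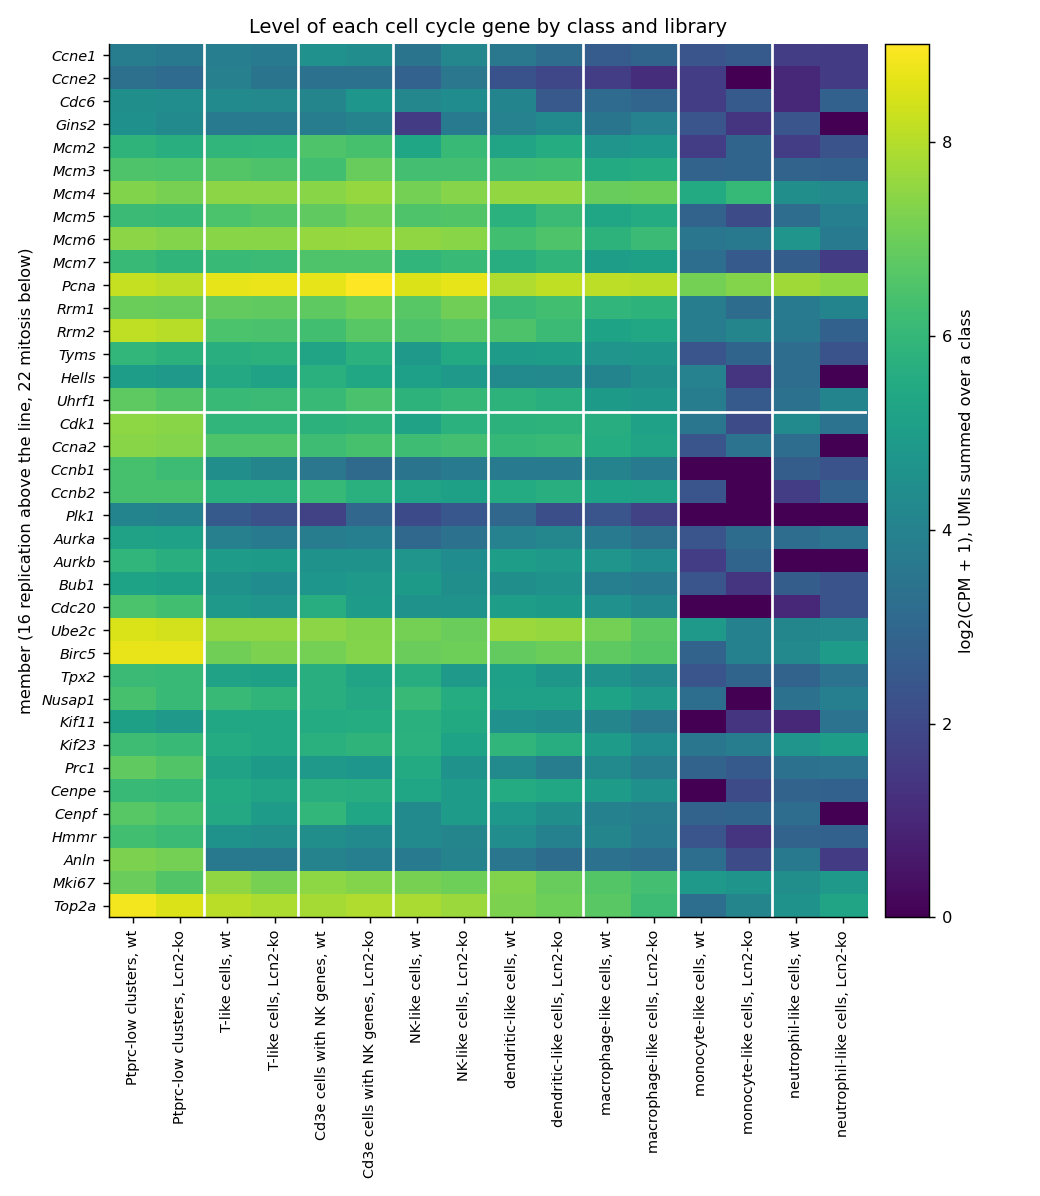
Level of each of the 38 genes as log2(CPM + 1), in colour, by class and library, with genes ordered by role. Pcna is the brightest row in the immune classes, and the columns of monocyte-like and neutrophil-like cells are dark outside it, with 5 and 6 and with 2 and 6 genes at 0.

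Birc5 and Ube2c led the mitotic regulators. The share of cells with a UMI of a member, given here for cycling and other cells, follows in part from the call, which counts that member, and is a description. Birc5 stood at 422 and 414 CPM in Ptprc-low clusters against 132 and 149 in T-like cells, 115 and 127 in dendritic-like cells and 109 and 96.2 in macrophage-like cells. Ube2c, the E2 enzyme of the APC/C, stood at 358 and 336 CPM in Ptprc-low clusters, 182 and 184 in T-like cells, 203 and 193 in dendritic-like cells and 140 and 104 in macrophage-like cells. A UMI of Birc5 was found in 65.6% and 67.0% of cycling cells and in 5.65% and 6.40% of the others. Cyclin A2 (Ccna2) was seen in 54.9% and 55.7% of cycling and 1.46% and 1.95% of other cells. Cdk1, its kinase partner, stood at 178 and 171 CPM in Ptprc-low clusters and 60.2 and 59.5 in T-like cells. Of the B cyclins, Ccnb1 was at 82.1 and 70.7 CPM in Ptprc-low clusters and 20.7 and 16.1 in T-like cells, whereas Ccnb2 was at 82.1 and 82.4 against 51.5 and 51.7. The APC/C activator Cdc20 stood at 87.6 and 76.4 CPM in Ptprc-low clusters and 27.4 and 25.2 in T-like cells. The kinases were scarce: Aurkb at 59.3 and 50.8 CPM in Ptprc-low clusters, the checkpoint kinase Bub1 at 36.6 and 33.7, Aurka at 35.3 and 34.7 and Plk1 at 15.9 and 14.4. Plk1 had 679 UMIs in all and was seen in 12.5% and 11.7% of cycling cells.

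Of the spindle and cytokinesis genes, Anln differed most between cell kinds. Anln encodes anillin, a scaffold of the contractile ring, and stood at 149 and 138 CPM in Ptprc-low clusters, 11.4 and 11.5 in T-like cells, 12.1 and 15.5 in NK-like cells, 10.6 and 8.04 in dendritic-like cells and 9.52 and 8.40 in macrophage-like cells. Prc1, which bundles the central spindle, stood at 111 and 92.6 CPM in Ptprc-low clusters and 35.9 and 28.9 in T-like cells. Levels of the kinesin Kif23, at 72.6 and 67.3 against 45.4 and 40.1 CPM, and of the spindle factor Tpx2, at 70.2 and 66.4 against 35.2 and 33.7, differed less. Kif11, the motor that separates the poles, was the only one of these 9 genes higher in T-like cells than in Ptprc-low clusters in both libraries, at 40.8 and 40.7 against 33.5 and 28.6 CPM. Nusap1, which binds spindle microtubules, stood at 82.7 and 65.5 CPM in Ptprc-low clusters and 67.2 and 59.1 in T-like cells, and the kinetochore proteins Cenpe and Cenpf at 66.8 and 63.4 and at 99.9 and 87.9 CPM in Ptprc-low clusters. Hmmr, a spindle-associated protein, stood at 77.0 and 70.1 CPM there. It was seen in 33.5% and 33.1% of cycling cells and in 0.638% and 0.736% of the others.

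Both chromosome structure genes were abundant. Top2a stood at 456 and 369 CPM in Ptprc-low clusters, 268 and 236 in T-like cells, 221 and 243 in Cd3e cells with NK genes, 235 and 199 in NK-like cells, 150 and 128 in dendritic-like cells and 104 and 72.1 in macrophage-like cells. Mki67, whose protein Ki-67 coats mitotic chromosomes and is the common histological mark of division, was lower in Ptprc-low clusters than in T-like cells, with 124 and 94.6 CPM in Ptprc-low clusters against 180 and 142, and stood at 158 and 119 in dendritic-like cells. Its UMIs were found in 63.5% and 61.5% of cycling cells and in 9.30% and 7.12% of the others. Across the 38 genes, the median level in the wt library and the library labelled Lcn2-ko was 82.1 and 70.4 CPM in Ptprc-low clusters, 47.5 and 46.2 in T-like cells, 51.5 and 50.1 in Cd3e cells with NK genes, 42.0 and 39.7 in NK-like cells, 36.0 and 37.4 in dendritic-like cells, 27.0 and 24.0 in macrophage-like cells, 8.38 and 5.95 in neutrophil-like cells and 6.35 and 4.88 in monocyte-like cells.

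Levels of the 38 genes were also compared between cycling cells of the Ptprc-low clusters and cycling T-like cells. The cells were chosen by the summed genes, so these values are descriptions. As CPM of cycling cells, 11 of the 38 genes were at least 1.5-fold higher in Ptprc-low clusters in the wt library, 10 of them mitosis genes, 6 were as much lower, and 21 lay between. The counts were the same in the library labelled Lcn2-ko. Over all 7648 and 7554 genes measured, 32.6% and 32.4% were as much higher and 25.2% and 25.6% as much lower. Differences of this size are thus common between these cell kinds, and the counts for the 38 genes do not exceed these shares. Anln was the most unequal, at 275 against 23.4 CPM in the wt library (log2 ratio 3.56, 3.19 to 3.95) and 268 against 27.1 in the other (3.30, 3.0 to 3.63). Ccnb1 followed at 1.49 (1.24 to 1.75) and 1.76 (1.5 to 2.03), then Prc1 at 1.30 (1.10 to 1.51) and 1.44 (1.23 to 1.65). Rrm2, at 1.16 (1.04 to 1.28) and 1.29 (1.17 to 1.4), was the only replication gene among the 11. At the other end Mki67 stood at 234 against 478 CPM and 187 against 369 CPM, with log2 ratios of -1.03 (-1.14 to -0.93) and -0.98 (-1.09 to -0.87). Pcna, at -0.77 and -0.87, and Mcm5, at -0.79 and -0.92, were also lower in cycling Ptprc-low cells.

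The genes most like the 38 came from the same machinery. Likeness was the smallest log2 ratio of cycling over other cells across T-like cells and Ptprc-low clusters of both libraries, among 8028 eligible genes. Among the 12 leading genes were Nuf2 (5.20), Nek2 (5.13), Pclaf (5.12), Sapcd2 (5.03), Kif18b (5.01), Kif4 (4.88), Cdca5 (4.68), Cdca8 (4.66), Rad54l (4.58), Spc25 (4.32) and Neil3 (4.29). Of the 12, 10 stood in the lists of other cell cycle genes used here, and Sapcd2 and Rad54l did not. Pclaf, a Pcna-binding protein, was the most abundant, at 708 CPM in cycling and 12.6 in other T-like cells of the wt library. Nuf2 and Spc25, both subunits of the Ndc80 kinetochore complex, stood at 50.5 against 1.38 and at 37.9 against 1.57 CPM there.

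Other cell cycle genes followed the called cells, by list. Of 180 listed genes, 174 were measured, and a gene enters a count where it had at least 20 CPM in cycling or in other cells and 20 UMIs over both. A gene that passes only through the cycling cells has to differ, so these counts are descriptions. In T-like cells, 38 of 38 other replication genes were at least 1.5-fold higher in cycling than in other cells of the wt library (median log2 ratio 2.26) and 36 of 37 in the other library (2.32). Mcm10, a replication initiation factor, had log2 ratios of 4.47 and 5.48. Lig1, the ligase of the lagging strand, was the most abundant at 371 against 93.7 CPM (1.99 and 2.04), and Casp8ap2 was the least changed at 0.72 and 0.53. Of other mitosis genes, 68 of 72 (median 3.50) and 65 of 67 (3.48) were as much higher, led by Cenpm (5.91 and 5.70) and Pimreg (4.73 and 6.70), with Hmgb2, a chromatin protein, the most abundant at 2585 against 607 CPM (2.09 and 2.15). Pttg1, which encodes securin, went the other way in T-like cells at 76.2 against 105 CPM, a log2 ratio of -0.47 in both libraries, yet in Ptprc-low clusters it was higher in cycling cells by 2.56 and 2.32. All genes outside the 38 set the background: in T-like cells 12.5% and 12.1% were as much higher and 16.3% and 15.9% as much lower, with medians of -0.14 and -0.13.

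Chromatin and tubulin genes of dividing cells also followed, with 17 of 18 and 16 of 17 higher in cycling T-like cells (medians 1.59 and 1.70). Stmn1, which destabilises microtubules, stood at 710 against 39.0 CPM (4.19 and 4.44), the tubulin Tuba1b at 3.05 and 2.95, the chromatin protein Ptma at 9052 against 3712 CPM (1.29 and 1.31) and Hmga1 at 0.50 and 0.32. Genes of the entry decision were mixed, with 6 of 11 higher and 2 lower in the wt library and 6 of 12 higher and 1 lower in the other. E2f7 (4.77 and 4.52) and E2f1 (97.2 against 11.4 CPM; 3.09 and 3.08), transcription factors of the E2F family, were higher, and Ccnd2, a D cyclin, was lower at 511 against 846 CPM (-0.73 and -0.84). Of 15 inhibitors, pocket proteins and anti-proliferative genes, 2 were higher in each library and 4 and 6 were lower. Rbl1, the pocket protein p107, was higher at 1.72 and 1.64 and the inhibitor Cdkn2c at 1.47 and 1.23, while Trp53inp1 (103 against 235 CPM; -1.20 and -1.16) and Btg1 (713 against 1258 CPM; -0.82 and -0.68) were lower. In Ptprc-low clusters the corresponding counts were 35 of 36 and 31 of 33 other replication genes, 70 of 73 and 69 of 71 other mitosis genes, and 17 of 18 chromatin and tubulin genes in each library.

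D cyclins, which link growth signals to the cycle, differed by cell kind. Ccnd1 stood at 1560 and 1549 CPM in Ptprc-low clusters, 407 and 361 in dendritic-like cells, 174 and 162 in macrophage-like cells and 22.4 and 26.8 in T-like cells. Ccnd2 was the reverse, at 732 and 694 CPM in T-like cells and 47.7 and 60.5 in Ptprc-low clusters. Cdkn1a, which encodes the inhibitor p21, was highest in neutrophil-like (1039 and 1140 CPM) and monocyte-like cells (1020 and 1149 CPM), where few cells were cycling. It stood at 612 and 697 CPM in macrophage-like cells and 568 and 643 in dendritic-like cells. Levels were lower in T-like cells (180 and 153), NK-like cells (134 and 144) and Ptprc-low clusters (91.8 and 102). It did not follow the cycling share throughout, as dendritic-like cells cycled about as often as T-like cells. Cdkn2a, the gene of p16 and p19Arf, stood at 0.1 CPM in Ptprc-low clusters of both libraries.

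Compared between libraries gene by gene, few of the 38 differed much. Counted were genes that reached 20 CPM in one of the libraries and held 20 UMIs in the sum of the pair, and a 1.5-fold difference made a call. In Ptprc-low clusters 0 of 35 genes were called in either direction, against 0.388% of all genes higher and 0.611% lower in the library labelled Lcn2-ko. Ratios there, as log2 of Lcn2-ko-labelled over wt, ran from -0.39 for Mki67 (-0.48 to -0.29) to 0.01 for Ccnb2, and 34 of 35 were below 0, with a median of -0.12 against -0.03 over all genes. In T-like cells 0 of 31 were called, against 0.397% higher and 0.635% lower, with a median of -0.05 against -0.03. Among the 31, the ratios ran from -0.47 for Cenpf (-0.70 to -0.24) to 0.17 for Birc5 (0.06 to 0.29), and below the floor Ccne2 was the lowest at -0.50 (-0.91 to -0.09). In dendritic-like cells 0 of 28 were called, against 1.37% and 1.59%, with a median of 0.00 against 0.01. Mcm5 was the highest there at 52.7 and 69.9 CPM (0.41, 0.17 to 0.65), and Cdc6 the lowest at 15.6 and 4.78 CPM (-1.71, -2.51 to -0.98), from 87 and 19 UMIs and below the floor of 20 CPM.

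Calls were made in the other 3 classes. In macrophage-like cells 1 of 25 was called, against 0.653% higher and 1.96% lower: Kif23 at 30.3 and 20.1 CPM (-0.59, -0.96 to -0.23). The median there was -0.15 against 0.00 over all genes. Hells was the highest of the 25 at 0.44 (0.02 to 0.87). Below the floor, among genes with at least 20 UMIs, Gins2 was the highest at 0.54 (0.03 to 1.07) and Plk1 the lowest at -0.82 (-1.93 to 0.23), from 22 and 13 UMIs. In Cd3e cells with NK genes 2 of 32 were higher and 2 lower, against 4.74% and 5.06%: Cdc6 at 0.66 (-0.19 to 1.54) and Mcm3 at 76.6 and 121 CPM (0.65, 0.27 to 1.04), then Cdc20 at 48.0 and 29.9 CPM (-0.68, -1.32 to -0.06) and Cenpf at 61.1 and 38.5 CPM (-0.67, -1.23 to -0.12). In NK-like cells 3 of 29 were higher and 2 lower, against 4.14% and 4.88%: Mcm2 at 39.4 and 67.0 CPM (0.76, 0.21 to 1.34), Cenpf at 0.73, Tyms at 0.69, Prc1 at 44.5 and 23.6 CPM (-0.92, -1.62 to -0.23) and Tpx2 at -0.73. Of genes with at least 20 UMIs, Ccne2, under the floor, had the highest ratio there at 0.86 (-0.58 to 2.52). With 0 to 3 genes called in each class and direction, the counts lie near what the shares over all genes give.

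Summed over all 38 genes, log2 ratios between the libraries were small: -0.14 (-0.15 to -0.12) in Ptprc-low clusters, -0.05 (-0.07 to -0.02) in T-like cells, 0.10 (0.04 to 0.17) in Cd3e cells with NK genes, 0.03 (-0.05 to 0.10) in NK-like cells, -0.02 (-0.06 to 0.02) in dendritic-like cells and -0.15 (-0.19 to -0.10) in macrophage-like cells. The macrophage-like value was -0.30 in the clustering with no cell left out as a doublet, which also moved cells from the macrophage-like to the monocyte-like class, and that of T-like cells -0.12 at 2000 UMIs a cell. Read by role, the genes did not differ alike in the immune classes. Summed UMIs of the 22 mitosis genes were lower in the library labelled Lcn2-ko by log2 ratios of -0.12 (-0.15 to -0.08) in T-like cells, -0.16 (-0.27 to -0.05) in NK-like cells, -0.13 (-0.19 to -0.08) in dendritic-like cells and -0.36 (-0.42 to -0.30) in macrophage-like cells, where they fell from 869 to 677 CPM. In Cd3e cells with NK genes the ratio was -0.05 (-0.15 to 0.05). Summed replication genes stood at 0.02, 0.18 (0.08 to 0.28), 0.09 (0.04 to 0.15), 0.06 (-0.00 to 0.12) and 0.23 (0.14 to 0.32) in the same order. In Ptprc-low clusters both sums were lower by nearly the same amount, -0.15 for mitosis and -0.12 for replication genes. The UMIs of mitosis genes per UMI of replication genes thus went from 0.969 to 0.885 in T-like cells, 0.909 to 0.749 in Cd3e cells with NK genes, 0.943 to 0.746 in NK-like cells, 1.15 to 0.981 in dendritic-like cells and 1.11 to 0.834 in macrophage-like cells, against 1.81 and 1.77 in Ptprc-low clusters.

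Class sums mix clusters that differed from each other. Xcr1 dendritic-like cells were 459 of 778 and 248 of 573 cells of their class, and their mitosis genes were higher, at 0.10 (0.04 to 0.17), with replication genes at 0.22. In Cd209a dendritic-like cells the mitosis genes stood at -0.41 (-0.53 to -0.30) and the replication genes at 0.01. Among T-like cells, mitosis genes stood at -0.40 (-0.49 to -0.31) in CD8 T-like (Ly6c2) cells, -0.52 (-0.67 to -0.38) in the Il17a cluster and -0.27 (-0.41 to -0.12) in CD4 helper-like cells. They stood at 0.04 (-0.04 to 0.12) in CD8 T-like (Gzmf) cells, which were 311 and 556 cells, and in regulatory T-like cells mitosis genes stood at -0.05 and replication genes at -0.11. Of the Ptprc-low clusters, mitosis genes stood at -0.11 in the Hhip cluster, at 0.26 (0.20 to 0.31) in the Hmga2 cluster and at 0.32 (0.23 to 0.40) in the Fgb cluster. For macrophage-like cells, mitosis genes stood at -0.33 to -0.53 over the other clusterings, and replication genes at -0.07 to 0.08. With monocyte-like cells added they stood at -0.38 and 0.04 in the clustering used.

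**Figure D4:**
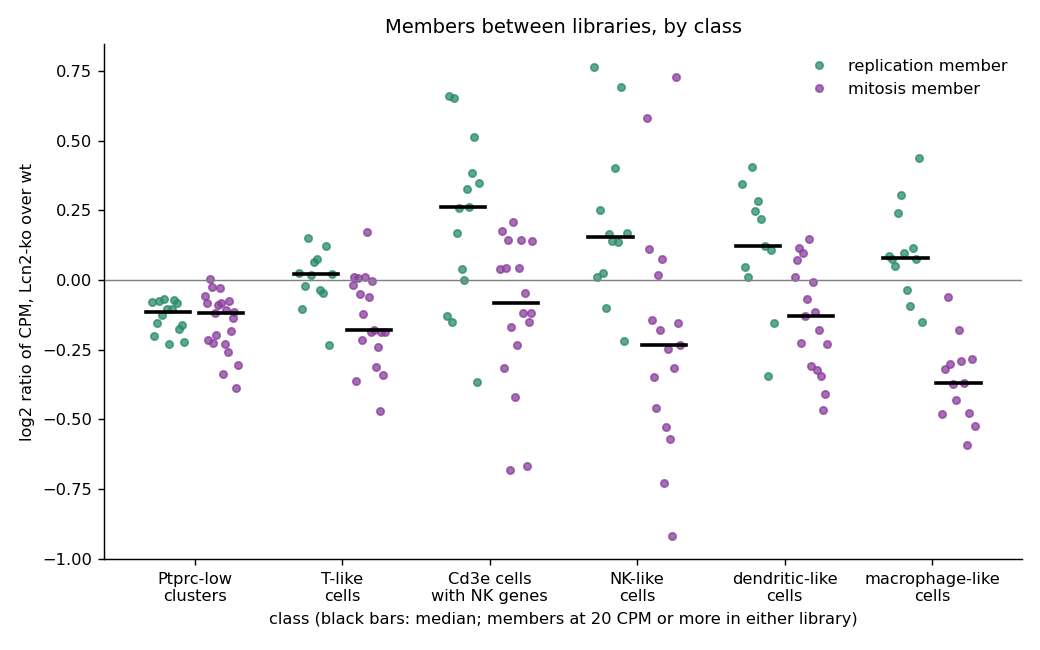
Log2 ratio of each gene, library labelled Lcn2-ko over wt (vertical axis), in the 6 classes compared, with replication and mitosis genes side by side and a bar at each median. In macrophage-like cells the medians are 0.08 and -0.37, in Ptprc-low clusters -0.11 and -0.12.

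The directions of single genes were counted as a description. In macrophage-like cells all 13 mitosis genes that passed the floor were below 0 (median -0.37), against 3 of 12 replication genes (0.08). In T-like cells it was 15 of 19 (-0.18) against 5 of 12 (0.02), in Cd3e cells with NK genes 10 of 18 (-0.08) against 3 of 14 (0.26), in NK-like cells 12 of 17 (-0.23) against 2 of 12 (0.15), and in dendritic-like cells 12 of 17 (-0.13) against 2 of 11 (0.12). In Ptprc-low clusters 20 of 21 mitosis genes (-0.12) and 14 of 14 replication genes (-0.11) were below 0. Without the floor, Tpx2, Nusap1, Prc1, Cenpe, Hmmr and Mki67 were lower in all 6 classes, and 14 of the 22 mitosis genes in at least 5. Of the 16 replication genes only Hells was lower in at least 5 classes, and Mcm5, Mcm7 and Tyms were higher in at least 5. Over all genes the median was -0.03 in Ptprc-low clusters and in T-like cells and 0.00 in Cd3e cells with NK genes. It was -0.01 in NK-like cells, 0.01 in dendritic-like cells and 0.00 in macrophage-like cells. The share of all genes below 0 is not given here. UMIs of the 38 genes come from the same cycling cells, so the genes counted are not separate support for a direction. All classes share the same 2 libraries, so they are not independent of each other.

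Other genes of the same processes were summed for comparison. Summed over 84 other mitosis genes, log2 ratios were -0.05 in T-like cells, -0.00 in Cd3e cells with NK genes, -0.07 in NK-like cells, -0.03 in dendritic-like cells, -0.18 (-0.21 to -0.14) in macrophage-like cells and -0.12 in Ptprc-low clusters. Over 40 other replication genes they were -0.03, 0.11, 0.08, -0.03, 0.06 and -0.12 in the same order. In dendritic-like cells both lists stood at -0.03.

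Counted in cells, mostly mitotic profiles took a smaller share of Lcn2-ko-labelled than of wt cycling cells in each of the 5 immune classes. Most of the intervals held 0, and the clusters within classes did not all go the same way. A cycling cell was placed there when mitosis genes gave over 75% of its UMIs of the 38 genes. In T-like cells these were 113 of 612 (18.5%) and 99 of 689 (14.4%), a difference of -4.10 points (-8.16 to -0.07), and in macrophage-like cells 38 of 116 (32.8%) and 28 of 119 (23.5%), -9.23 points (-20.4 to 2.26). In Cd3e cells with NK genes the counts were 27 of 107 (25.2%) and 14 of 91 (15.4%), -9.85 points (-20.7 to 1.57). NK-like cells gave 9 of 52 (17.3%) and 11 of 82 (13.4%), -3.89 points (-17.6 to 8.12), and dendritic-like cells 61 of 193 (31.6%) and 38 of 136 (27.9%), -3.67 points (-13.4 to 6.48). All 5 differences were negative, and 1 interval lay wholly below 0. Pooled over these 5 classes, a step chosen after the values were seen, it was 248 of 1080 (23.0%) and 190 of 1117 (17.0%), -5.95 points (-9.29 to -2.61). Ptprc-low clusters gave 273 of 633 (43.1%) and 241 of 555 (43.4%), 0.30 points (-5.33 to 5.93). Size and direction depend on the setting: with the cell cycle genes kept in the clustering, NK-like cells gave 0.414 points. Left without Pcna, NK-like cells gave -18.1 points and dendritic-like cells -1.63, and at 2000 UMIs a cell dendritic-like cells gave -7.28 and macrophage-like cells -6.14. With 1 library for each label, genotype, animal and library preparation cannot be told apart.

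**Figure D5:**
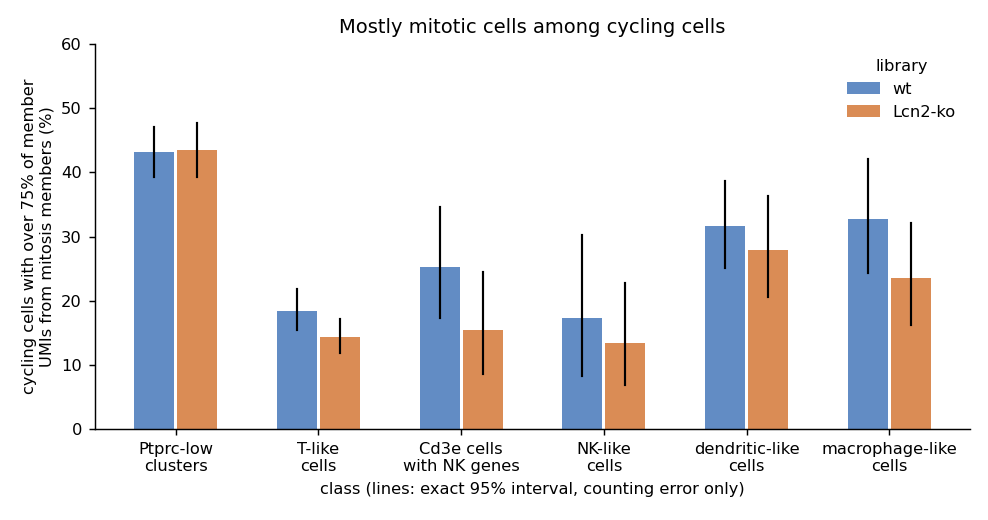
Percent of cycling cells in which mitosis genes gave over 75% of the UMIs of the 38 genes (vertical axis), by class and library, with exact 95% binomial bars that cover counting error only. Ptprc-low clusters stand level at 43.1% and 43.4%, and each of the 5 immune classes compared is lower in the library labelled Lcn2-ko, with overlapping bars.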

How the data were processed

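Single-cell RNA was measured in 1 library per genotype label. The deposited matrices hold raw UMI counts per gene and barcode, not normalised by the authors. The tool Cell Ranger and the build mm10 are listed, per the submitters' processing notes, and versions and roles are not given in the sources used here. No barcode had under 501 UMIs. Cells with under 200 genes (82 and 46), over 20% mitochondrial UMIs (262 and 241), or in the top 4% of Scrublet scores (319 and 312) were left out, since Scrublet's own threshold marked 1 cell per library. The libraries were clustered together with scanpy 1.11.5 and leidenalg 0.10.2 on 2000 variable genes without the cell cycle genes, Lcn2 or sex-linked genes (30 components, 15 neighbours, resolution 1, no batch correction), giving 23 clusters.

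Clusters with Ptprc and little Cd3e were named from marker lists where at least 60% of the markers were high. The same minimum of NK cell markers set apart the Cd3e cells with NK genes. Other Cd3e clusters took the T cell list with the largest share of high markers, with no minimum. The label Il17a was given where most markers of gamma-delta or innate-like T cells were high. Ptprc-low clusters compared as a class were named by their leading gene. Limits of 100 CPM of Ptprc and 500 CPM of Cd3e were set after seeing the data. Members, lists and tests were chosen with earlier results of these data known. With 1 library per label no test was made: shares carry exact binomial intervals, differences of shares Newcombe intervals, levels exact Poisson intervals, and ratios conditional binomial intervals, all at 95% and for counting error only. CPM are UMIs of a gene in 1000000 of the cell set. The text names all 38 members, in each class the 3 most abundant and those with the extreme ratios, up to 4 genes per other list, and the most alike genes, and a few items these rules pick are not reported here. Alternatives were other limits, filters, clusterings and thinned depths. Scripts were tested on simulated data.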

Additional observations from a re-analysis of the deposited data

Results flagged for a closer look

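The summed level of the 38 genes differed between the libraries in opposite directions among classes. In Cd3e cells with NK genes the log2 ratio, library labelled Lcn2-ko over wt, was 0.10. In Ptprc-low clusters it was -0.14, in T-like cells -0.047 and in macrophage-like cells -0.15. Each interval leaves out 0 for counting error, and the difference between classes was not tested.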

How the results depend on the processing

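In what follows, pairs are the wt library and the library labelled Lcn2-ko, values with a percent sign are cycling shares, and log2 ratios are those of the summed 38 genes or the genes left. A score limit of 0.1% called 48.2% and 45.5% of Ptprc-low clusters, 45.2% and 44.7% of T-like cells, 51.1% and 52.8% of Cd3e cells with NK genes, 35.6% and 42.0% of NK-like cells, 36.8% and 38.9% of dendritic-like cells and 35.9% and 37.4% of macrophage-like cells. A limit of 0.4% called 31.4% and 29.5% of Ptprc-low clusters, 14.1% and 14.1% of T-like cells, 16.2% and 18.4% of Cd3e cells with NK genes, 12.6% and 12.9% of NK-like cells, 14.9% and 14.7% of dendritic-like cells and 10.6% and 6.76% of macrophage-like cells. Calling every cell with at least 3 different members, without a score limit, gave 71.5% and 72.0% of Ptprc-low clusters, 40.2% and 40.8% of T-like cells, 52.5% and 53.1% of Cd3e cells with NK genes, 40.4% and 42.5% of NK-like cells, 58.0% and 55.5% of dendritic-like cells and 67.4% and 64.4% of macrophage-like cells. The mitosis members alone called 28.8% and 27.8% of Ptprc-low clusters, 12% and 11.4% of T-like cells, 12.8% and 13.6% of Cd3e cells with NK genes, 11.5% and 10.3% of NK-like cells, 13.5% and 12.9% of dendritic-like cells and 12.1% and 8.53% of macrophage-like cells and gave log2 ratios of -0.12 in T-like cells, -0.050 in Cd3e cells with NK genes, -0.16 in NK-like cells, -0.13 in dendritic-like cells and -0.36 in macrophage-like cells. The replication members alone gave log2 ratios of -0.12 in Ptprc-low clusters, 0.016 in T-like cells, 0.23 in Cd3e cells with NK genes, 0.18 in NK-like cells, 0.093 in dendritic-like cells and 0.057 in macrophage-like cells. Keeping the doublet-scored cells called 41.6% and 38.9% of Ptprc-low clusters and 25.9% and 22.8% of macrophage-like cells and gave log2 ratios of 0.030 in dendritic-like cells and -0.30 in macrophage-like cells. Clustering with the cell cycle genes kept called 41.6% of Ptprc-low clusters (wt), 36.1% of Cd3e cells with NK genes (Lcn2-ko-labelled), 9.96% and 12.4% of NK-like cells and 23.1% of macrophage-like cells (Lcn2-ko-labelled) and gave log2 ratios of 0.17 in Cd3e cells with NK genes, 0.13 in NK-like cells and -0.25 in macrophage-like cells. Thinning to 800 UMIs called 39.0% of Ptprc-low clusters (Lcn2-ko-labelled), 27.3% and 28.1% of T-like cells and 28.3% of dendritic-like cells (wt) and gave log2 ratios of -0.11 in Ptprc-low clusters, -0.057 in NK-like cells and -0.27 in macrophage-like cells. Thinning to 2000 UMIs called 32.6% and 30.9% of T-like cells, 26.3% and 27.7% of NK-like cells, 28.3% and 27.9% of dendritic-like cells and 24.2% of macrophage-like cells (wt) and gave log2 ratios of -0.19 in Ptprc-low clusters, -0.12 in T-like cells and -0.080 in dendritic-like cells. A mean over cells gave log2 ratios of -0.12 in Ptprc-low clusters and -0.088 in dendritic-like cells. A mitochondrial limit of 10% called 24.0% and 23.1% of macrophage-like cells and gave a log2 ratio of -0.23 in macrophage-like cells. A clustering resolution of 2 called 22.6% of macrophage-like cells (Lcn2-ko-labelled) and gave a log2 ratio of -0.23 in macrophage-like cells. Adding the cluster of few UMIs, an alternative chosen after seeing the data, called 41.6% of Ptprc-low clusters (wt). The log2 ratio of T-like and of macrophage-like cells turned positive for the replication members alone, and that of Cd3e cells with NK genes turned negative for the mitosis members alone; the causes of the changes in this part were not tested. Leaving out Pcna moved the difference in mostly mitotic cells of NK-like cells to -18.1 points, also an alternative chosen after seeing the data. A gene minimum of 500, leaving out the member with the most UMIs, and scaling without mitochondrial and ribosomal protein genes moved none of the 24, 6 and 6 values tried with them beyond its interval. At a fold limit of 2 the counts of called members fell to 0 in every class compared. With a floor of 50 CPM they were 1 higher and 1 lower in Cd3e cells with NK genes, 1 higher and 0 lower in NK-like cells, and 0 lower in macrophage-like cells. No paired analysis was possible because each label has 1 library, and no library could be left out for the same reason. In a cell of 1219 UMIs, the Lcn2-ko-labelled median of neutrophil-like cells, a few member UMIs decide the call.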

Other observations

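Identity markers were compared between cycling and other cells of a cluster. In regulatory T-like cells, Foxp3 stood at 518 CPM in cycling and 921 CPM in other cells of the wt library (log2 ratio -0.83, -0.96 to -0.70), and in the Lcn2-ko-labelled library at 634 and 913 CPM (-0.53, -0.65 to -0.41). All 6 markers of these cells lay within 2-fold in both libraries, as did the 6 of Xcr1 dendritic-like cells and of Cd209a dendritic-like cells and the 10 of macrophage-like cells. More than 2-fold lower in cycling cells were 2 of 5 markers of CD4 helper-like cells in the wt library (Tnfsf8 at -1.11 and Icos at -1.19) and 1 of 5 in the other (Tnfsf8 at -1.11), 1 of 6 in NK-like cells of the Lcn2-ko-labelled library (Klra8 at -1.22), and 1 of 6 in CD8 T-like (Gzmf) cells of the wt library (Gzmb at -1.20). The NK receptor gene Ncr1 stood at 357 and 389 CPM in cycling and other NK-like cells of the wt library, and at 336 and 327 CPM in the other library. Effector genes of CD8 T-like (Ly6c2) cells were lower in cycling cells of the wt library: the granzyme gene Gzmb stood at 1033 against 2265 CPM (-1.13, -1.27 to -1.0) and the perforin gene Prf1 at 21.6 against 101 CPM (-2.23, -3.23 to -1.36). In the other library, Gzmb stood at 2275 against 2390 CPM (-0.07, -0.17 to 0.03) and Prf1 at 57.4 against 132 CPM (-1.20, -1.83 to -0.63). Whether these differ between the libraries was not tested.

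Cells with Y-linked UMIs only, which carry the sex of the marrow donors, and cells with Xist UMIs only, which carry that of the hosts, cycled at close rates in T-like cells. Among Y-only cells 26.0% of 981 (23.3 to 28.9) and 26.4% of 1022 were cycling, and among Xist-only cells 25.5% of 400 (21.3 to 30.1) and 28.3% of 512 (24.5 to 32.4). In CD8 T-like (Ly6c2) cells, 43 of 97 Xist-only cells (44.3%; 34.2 to 54.8) were cycling in the wt library and 15 of 70 (21.4%; 12.5 to 32.9) in the other, against 28.6% (22 to 35.9) and 24.3% (18.6 to 30.7) of Y-only cells. The CD8 T-like (Gzmf) cluster differed in make-up, with 15 and 177 Xist-only cells against 183 and 158 Y-only cells. Of its Y-only cells 29.0% and 44.3% were cycling, and of its Xist-only cells 20% and 41.8%. In regulatory T-like cells it was 25.2% and 23.5% of Y-only and 19.6% and 21.9% of Xist-only cells. Cells with neither or both were left out, and deeper cells are more often assigned.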
